A study of Ovis aries with 12 samples.

Results

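The genes described here are those for which high and low fertility separated the libraries in opposite directions in sheep endometrium and in sheep ovarian or luteal tissue. RNA was sequenced from 12 libraries. The titles place 3 in each of 4 groups: low fertility (Co-L) and high fertility (Co-H) of the tissue coded Co, and low (T-L) and high (T-H) of the tissue coded T. The T libraries were labelled endometrium, and the Co libraries ovary, except Co-H 3, whose label is corpus luteum, while the file headers name all 6 Co libraries CL. No breed, age or cycle stage is given in the sources used here. The series' design text speaks of 6 control and 6 treatment samples without naming a treatment or saying which libraries are which. The meaning of Co and T, each with 6 libraries, is not stated, so they may stand for control and treatment as well as for the tissue. The design text also calls the samples pooled, without saying how many animals a library holds or whether separate ewes stand behind the replicates. The p-values below therefore measure the spread between these libraries, which may be technical, and a treatment or any other factor that differs between Co and T cannot be told apart from tissue in any comparison of T with Co.

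Members were picked on CPM, a read count scaled to the depth of its library, with library sizes adjusted by TMM (edgeR's trimmed mean method). A gene was a member if its mean over the 12 libraries was 1 CPM or more, if all 3 H libraries lay above all 3 L libraries in 1 tissue, and if all 3 lay below in the other. Of 14405 cattle gene identifiers with a summed count of 120 or more, 14029 reached the mean of 1 CPM. The pattern was met by 138 of these, a share of 0.984%, and 4 of the 138 were left out by the rule, which leaves 134 members. In 54 members high fertility was above low in Co and below it in T, hereafter the Co-up genes. In the other 80 members high fertility was below low in Co and above it in T, hereafter the Co-down genes. Since the H and L values chose the members, everything said of H against L is a description and carries no test.

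The corpus luteum forms from the ovulated follicle and secretes progesterone, which prepares the endometrium to receive and nourish an embryo. The endometrium in turn releases prostaglandin, which ends the life of the corpus luteum when no embryo is present. The tissues thus signal to each other through the cycle, and a gene active in both can be under different hormonal control in each. The files give cattle gene identifiers without names, and 0 of the 24616 identifiers matched the sheep gene table used here. Gene names, functions, tissue markers and sequences were therefore not analysed here, and the members are given by identifier, with at most 2 in each direction for a comparison.

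Across all genes, total counts ranged from 9627378 to 17852552 per library. Co-H 2 and Co-H 3 had TMM factors of 0.979 and 1.00. The other 4 Co libraries had factors from 0.748 to 0.869, and the T libraries from 1.03 to 1.23, with T-H 1 lowest. Co-H 2 and Co-H 3 also had more genes detected, 17091 and 17014 against 15935 to 16609 in the other Co libraries. The edgeR quasi-likelihood test with Benjamini-Hochberg adjustment called 709 of 14839 genes (4.78%) between Co-H and Co-L at an adjusted p under 0.05, 365 higher in Co-H (2.46%) and 344 lower (2.32%), a count that moved between 0 and 3110 when single libraries were left out. It called 0 genes between T-H and T-L. There 608 of the 14839 had an unadjusted p under 0.05, a share smaller than that cut-off itself. DESeq2 called 27 and limma-voom 3 between T-H and T-L. The difference of the fertility contrasts between the tissues was called for 0 genes by edgeR, members included, with 2423 genes at an unadjusted p under 0.05. DESeq2 called 135 genes and limma-voom 1675 for that difference. Among the members 27 were called between Co-H and Co-L, 13 Co-up and 14 Co-down, a count from which nothing is read because the same contrast chose them.

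Separation of the fertility groups was tallied over all identifiers. High and low fertility were separated in Co for 3331 of the 14029 identifiers (23.7%), with H above L for 1393 (9.93%) and below for 1938 (13.8%). In T they were separated for 1437 (10.2%), with H above L for 703 (5.01%) and below for 734 (5.23%). Both separations ran the same way for 204 identifiers (1.45%) and opposite ways for the 138 (0.984%), so the opposite pattern was the less frequent. Of the 138, 56 were Co-up (0.399%) and 82 Co-down (0.585%) before the 4 were left out. With so few libraries in a group, H and L also separate in some identifiers when fertility has no effect. Whether the shares in Co, in T or in both exceed that level was not tested. Neither the separations in T nor the opposite pattern is therefore read as a response to fertility.

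The Co-up genes were led by ENSBTAG00000011275 and ENSBTAG00000019291, the members with the largest value of the smaller of their 2 fertility differences. ENSBTAG00000011275 stood at 0.481, 0.826 and 1.17 CPM in Co-L 1 to 3 and at 1.86, 4.81 and 1.58 CPM in Co-H 1 to 3. In T it stood at 2.13, 0.819 and 1.61 CPM in T-L 1 to 3 and at 0.534, 0.787 and 0.379 CPM in T-H 1 to 3. Co-H 2 was well above the other 2 Co-H libraries, and in T the lowest L library, T-L 2, was only 1.04 times the highest H library, T-H 2. The log2 difference between H and L was 1.76 (SE 0.56) in Co and −1.39 (SE 0.58) in T, on 5 to 84 counts per library.

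ENSBTAG00000019291 was mainly a Co gene. It stood at 13.1, 16.1 and 19.5 CPM in Co-L 1 to 3 and at 23.4, 53.2 and 33.6 CPM in Co-H 1 to 3. In T it stood at 1.49, 1.05 and 1.61 CPM in T-L 1 to 3 and at 0.534, 0.721 and 0.151 CPM in T-H 1 to 3. The H and L libraries did not overlap in either tissue, and every T library was far below every Co library. Its log2 difference between H and L was 1.18 (SE 0.34) in Co and −1.51 (SE 0.49) in T, where 19 counts over the T-H libraries were set against 59 over T-L.

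The Co-down genes were led by ENSBTAG00000039504 and ENSBTAG00000007450. ENSBTAG00000039504 stood at 1.03, 0.376 and 51.7 CPM in Co-L 1 to 3 and at 0.0930, 0.115 and 0.315 CPM in Co-H 1 to 3. The T values were 0.129, 0.117 and 0 CPM in T-L 1 to 3 and at 8.46, 6.82 and 0.303 CPM in T-H 1 to 3. It was thus near the detection limit in Co-H and T-L, with 7 and 4 counts over 3 libraries each, and high in a few libraries only, Co-L 3, T-H 1 and T-H 2. Its fitted log2 differences, −6.60 (SE 1.91) in Co and 5.71 (SE 2.02) in T, rest on those libraries, and under scaling to the library total alone its H and L libraries overlapped.

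ENSBTAG00000007450 was detected in every library of both tissues, with a mean of 11.5 ± 8.92 CPM in Co and 22.5 ± 26.8 CPM in T (SD, n = 6 each). It stood at 7.08, 24.9 and 20.8 CPM in Co-L 1 to 3 and at 4.84, 5.67 and 5.67 CPM in Co-H 1 to 3. The T values were 11.0, 7.55 and 6.81 CPM in T-L 1 to 3 and at 76.6, 14.4 and 19.0 CPM in T-H 1 to 3. The Co-H libraries lay close together, and T-H 1 stood far above the other 2 T-H libraries. The log2 difference between H and L was −1.70 (SE 0.61) in Co and 2.11 (SE 0.61) in T. The log2 change of T against Co was 0.84 (SE 0.42), which did not pass the test (edgeR adjusted p = 0.10).

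**Figure D1:**
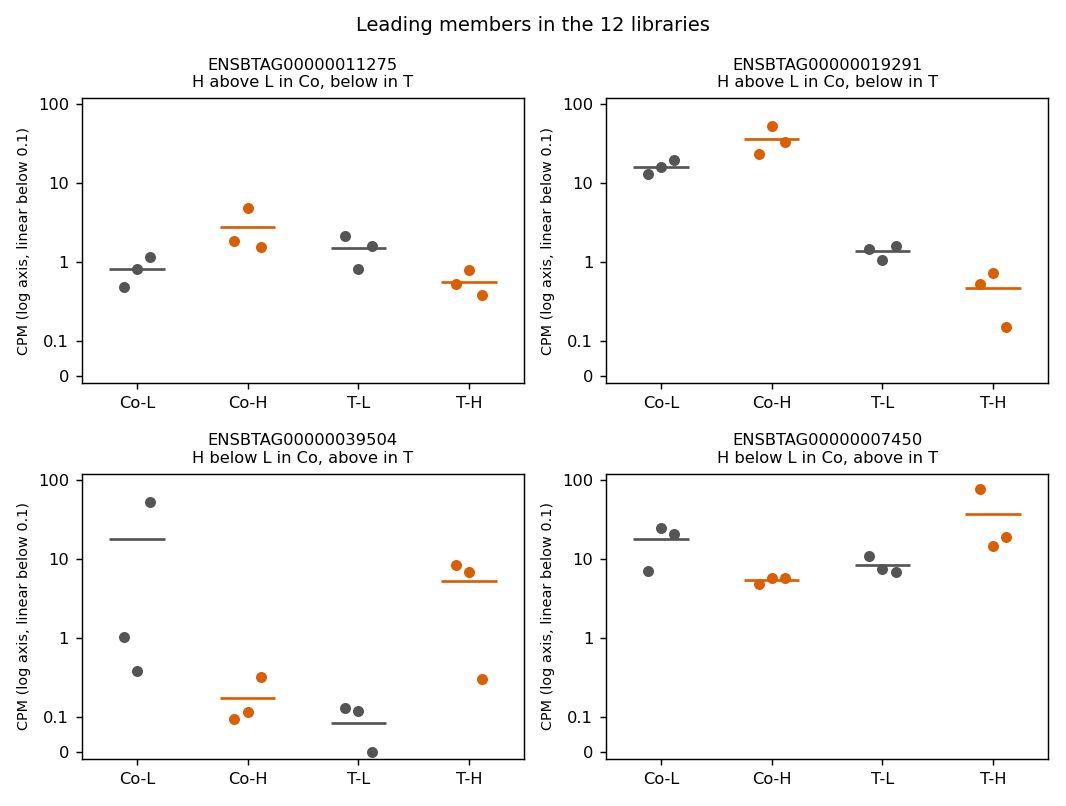
CPM of the 4 leading members in each library (points; vertical axis logarithmic above 0.1 CPM and linear below) by group, with the group mean as a bar, grey for L and orange for H. In each panel the H points are all on 1 side of the L points in Co and all on the other side in T. For ENSBTAG00000039504 Co-L 3 carries most of the Co-L mean, and T-H 1 and T-H 2 most of the T-H mean. For ENSBTAG00000007450 T-H 1 carries much of the T-H mean.

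Among the 134 members the fertility differences were mostly modest, and larger in Co than in T in 109 of them. The Co-up genes had a median log2 difference between H and L of 0.73 in Co and −0.29 in T. The Co-down genes had a median of −0.49 in Co and 0.31 in T. For comparison, the median over all 14839 genes was −0.07 in Co and 0.01 in T, and the median size without regard to sign was 0.35 and 0.15. A difference of at least 2-fold was reached by 29 members in Co and 10 in T, and by 6 members in both tissues, among them the 4 leading ones. Under 1.5-fold were 74 members in Co and 107 in T. The larger differences in Co are shared by the genes separated in that tissue at large, whose median size was 0.58 for the 3331 in Co and 0.36 for the 1437 in T.

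**Figure D2:**
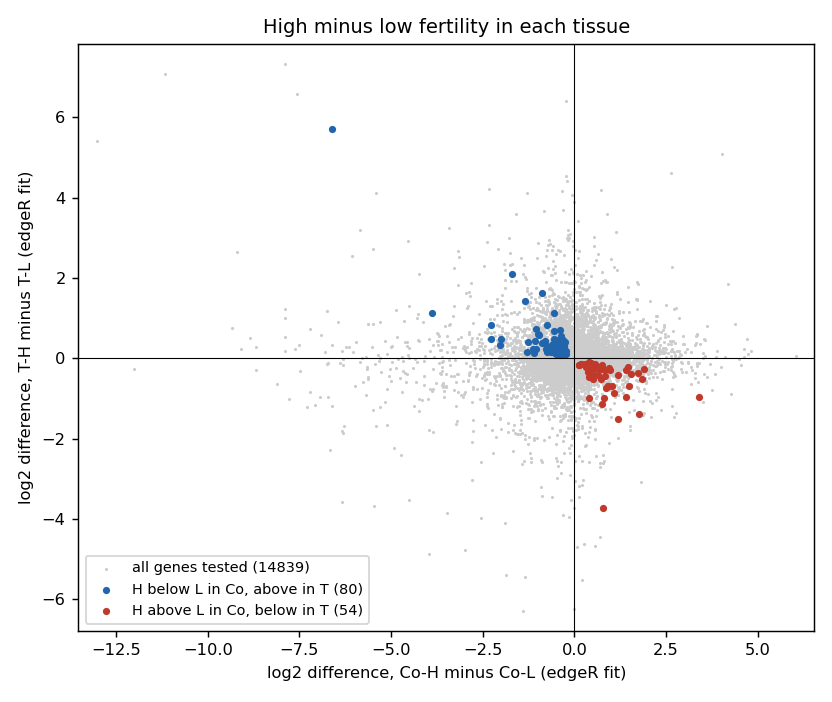
Log2 difference between high and low fertility in Co (horizontal) and in T (vertical) from the edgeR fit, for all 14839 genes tested (grey), the 54 Co-up genes (red) and the 80 Co-down genes (blue). The members fill the 2 opposite corners by the way they were chosen, most of them close to the origin.

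The groups lay close together in most members. The ratio between the nearest H and L library had a median of 1.10 in Co and 1.04 in T, and the gap was under 5% for 38 members in Co and 77 in T. The narrowest separations were 0.0151% in Co and 0.0387% in T. Just outside, the nearest gene separated in Co missed the opposite separation in T by an overlap of 0.0112%, and 170 genes separated in Co missed it by under 5%. The nearest gene separated in T missed the opposite separation in Co by 0.000297%, and 46 genes separated in T missed it by under 5%. On the mean level, the lowest member stood at 1.04 CPM and the nearest gene left out at 0.999 CPM.

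Depth limited how far the separations could be told from counting error. The 95% exact Poisson intervals of the nearest H and L library overlapped in Co for 119 members and in T for 129. No member had them apart in both tissues. These intervals cover counting error only. Among all genes separated in a tissue they were apart for 18.0% in Co and 10.6% in T. All 12 libraries had at least 10 counts in 118 members and at least 1 count in 131.

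**Figure D3:**
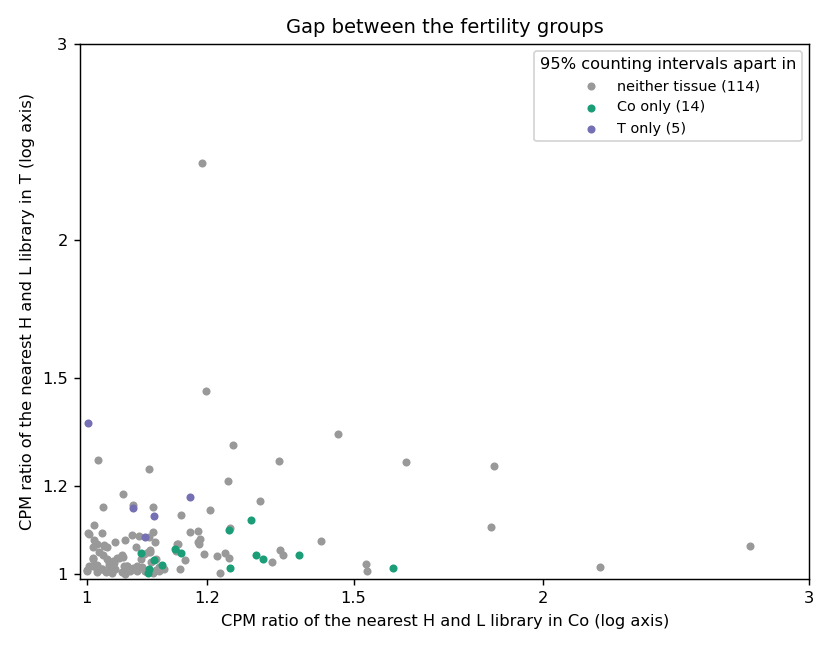
CPM ratio of the nearest H and L library in Co (horizontal) and in T (vertical), both axes logarithmic, for 133 members, coloured by the tissue in which the 95% counting intervals of those libraries were apart. ENSBTAG00000009017 is not drawn because it had 0 counts in T-H. Most points sit near a ratio of 1, and none has the intervals apart in both tissues.

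Libraries of a group did not lie evenly in the members, nor did they in the genes separated in a tissue at large. Co-H 1 was the H library nearest to the L libraries in 97 of 134 members (72.4%), and it held that place in 74.5% of all 3331 genes separated in Co. In the Co-up genes the median position against the Co mean, on the scale log2(CPM + 0.5), was 0.09 in Co-H 1, against 0.46 in Co-H 2 and 0.40 in Co-H 3. In the Co-down genes it was −0.07 in Co-H 1, against −0.31 and −0.36. At the L end Co-L 3 was the lowest Co library in 31 of the 54 Co-up genes (57.4%), against 63.3% of the 1393 genes with H above L in Co. It was the highest in 55 of the 80 Co-down genes (68.8%), against 68.5% of the 1938 genes with H below L.

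In T the libraries were closer together, and T-H 1 stood at the end of the range most often. It was the lowest T library in 27 of the 54 Co-up genes (50%), against 51.1% of the 734 genes with H below L in T. It was the highest in 44 of the 80 Co-down genes (55%), against 52.1% of the 703 genes with H above L. These shares lay near those of all genes separated in the tissue and are not particular to the members. The median positions in T lay between −0.17 and 0.15 in all 6 libraries for both classes. The part of TMM factors, of the number of genes detected or of the corpus luteum label of Co-H 3 in these positions was not tested. In bulk tissue, fewer cells of a type and less RNA per cell cannot be told apart.

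**Figure D4:**
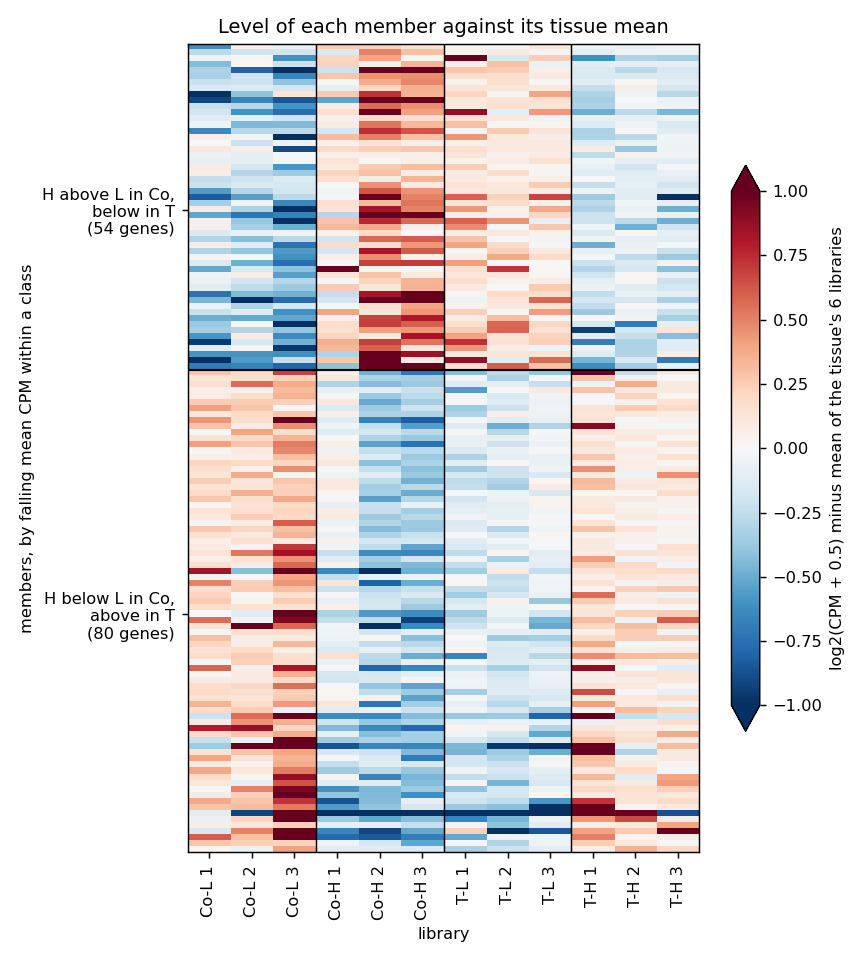
Level of each of the 134 members (rows, by falling mean CPM within a class) in each library (columns) as log2(CPM + 0.5) minus the mean of the 6 libraries of its tissue, with colours saturating at 1 and −1. Co-H 1 is paler than Co-H 2 and Co-H 3 in both classes, Co-L 3 is the strongest Co-L column, and the T columns are paler than the Co columns.

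Within groups, members of a class deviated together about as much as all genes separated in Co do. The deviations of log2(CPM + 0.5) from the group means had a median Pearson's r of 0.23 over the 1431 pairs of Co-up genes and 0.29 over the 3160 pairs of Co-down genes, across 12 libraries. Between the classes the median was −0.25 over 4320 pairs. Over all genes separated in Co the medians were 0.23 among the 1393 with H above L, 0.24 among the 1938 with H below L, and −0.24 between them. The rule acts on the same library values and can favour such correlations, so they are descriptions and not a trait of the members. The relation was larger in Co, at 0.31, 0.44 and −0.38 within Co-up, within Co-down and between them, than in T, at 0.04, 0.09 and −0.05, each over 6 libraries. Without Co-H 1, Co-L 3 and T-H 1 the 3 medians were 0.01, 0.01 and 0.01. Without Co-H 1 alone they were 0.08, 0.21 and −0.12.

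The classes differed in level. The mean CPM had a median of 12.6 in the Co-up genes and 42.0 in the Co-down genes, against 21.4 over the 14029 identifiers. Of the 19 members from 1 to 5 CPM 13 were Co-up (68.4%), and of the 19 members at 100 CPM or more 16 were Co-down. In the 40 members from 5 to 20 CPM 22 were Co-up, and in the 56 from 20 to 100 CPM 16. Under 5 CPM were 14.2% of the members, against 18.6% of the identifiers, and at 100 CPM or more 14.2% against 12.2%. Levels were not tallied by direction for all genes separated in Co. The fertility difference was larger in members of low level, with a median log2 size of 1.41 in Co and 0.57 in T below 5 CPM against 0.41 and 0.19 at 100 CPM or more. A rule of no overlap can favour large differences where counts are few, and all genes were not tallied by level, so this is a description.

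The most abundant member, singled out after its values were seen, was ENSBTAG00000012330, a Co-down gene. It stood at 2696, 2517 and 3571 CPM in Co-L 1 to 3 and at 2290, 1600 and 1353 CPM in Co-H 1 to 3. The T values were 2396, 2709 and 2477 CPM in T-L 1 to 3 and at 7417, 2739 and 3427 CPM in T-H 1 to 3. T-H 1 was more than 2-fold above every other T library, while T-H 2 exceeded T-L 2 by a ratio of only 1.01. The gene took 0.760% of all counts in T-H 1. The log2 change between T and Co was 0.57 (SE 0.24), which did not pass the test (edgeR adjusted p = 0.053). The 80 Co-down genes together took 1.40% of the counts there, against 1.01% and 1.08% in T-H 2 and T-H 3 and 0.830% to 0.922% in T-L. Without this gene the share of the other 79 was 0.644% in T-H 1, 0.684% and 0.676% in T-H 2 and T-H 3, and 0.550% to 0.589% in T-L.

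Which genes met the rule depended on the scaling of the libraries. With relative log expression (RLE) factors 62 genes met the rule as Co-up and 70 as Co-down, and with upper quartile factors 63 and 59, so that the Co-up share moved from 40.3% to 47.0% and 51.6%. Of the 134 members 106 met the rule under all 3 of these scalings. With the library total alone 127 genes were Co-up and 14 Co-down (90.1% Co-up). Of the members 43 Co-up but only 12 Co-down genes were then still separated. Scaling by the total raised the median log2 difference between H and L over all 14029 identifiers by 0.22 in Co. It lowered it by 0.06 in T. The group means kept their opposite directions under this scaling in all 54 Co-up and in 75 of 80 Co-down genes.

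The difference between the tissues averages over fertility, so the separation of H from L did not use it. The rule's mean of 1 CPM over the 12 libraries can, however, be met through 1 tissue alone. ENSBTAG00000009017 and ENSBTAG00000019291, at 0.0560 and 0.927 CPM in T, met it through Co. ENSBTAG00000017205, at 0.465 CPM in Co, met it through T. The adjusted p-values given below for these genes are therefore no independent support. Other members that met the mean through 1 tissue were not tallied and stay in the counts below. Of the 134 members 94 differed between T and Co (edgeR, adjusted p under 0.05), 42 higher and 52 lower in T. That is 70.1% of the members, against 64.4% of all 14839 genes tested, where 31.7% were higher and 32.7% lower. A change of at least 2-fold was called for 17 of the 134 members higher and 17 lower in T. Over the 14839 genes it was called for 2657 higher (17.9%) and 2268 lower (15.3%), a larger share in both directions. The median size of the log2 change was 0.63 in the members and 0.64 over all genes. The members thus lay near the background in how often they differed between the tissues and in the median size of the change. That background is not a like one. A rule of no overlap favours a small spread within groups, against which the test measures the tissue change. The 14839 genes were also not held to the mean of 1 CPM. No conclusion is drawn from the difference in the shares called.

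By class the tissue calls were as follows. Of the 54 Co-up genes 34 were called (63.0%), 11 higher and 23 lower in T. Of the 80 Co-down genes 60 were called (75%), 31 higher and 29 lower in T. Whether the classes differ in this was not tested, and the numbers higher and lower moved with the scaling. The median log2 change between T and Co was −0.25 in the Co-up and −0.06 in the Co-down genes, against −0.01 over all genes. The 6 libraries of T lay entirely above those of Co in 22 of the 134 members and entirely below in 29. Over the 14029 identifiers they did so for 2799 (20%) and 2914 (20.8%).

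The members with the greatest rise in T were Co-down genes. ENSBTAG00000012482 stood at 1.31, 3.46 and 1.95 CPM in Co-L 1 to 3 and at 1.12, 0.172 and 0.551 CPM in Co-H 1 to 3. The T values were 64.8, 73.5 and 52.5 CPM in T-L 1 to 3 and at 86.3, 93.5 and 87.1 CPM in T-H 1 to 3. The 6 Co libraries together held 107 counts of it, and under scaling to the library total alone its H and L libraries overlapped. It rose from 1.43 ± 1.17 CPM in Co to 76.3 ± 15.6 CPM in T (SD, n = 6 each). The edgeR log2 change was 6.05 with an SE of 0.31 and an adjusted p of 3.6e-08. ENSBTAG00000017205 stood at 0.344, 0.526 and 1.46 CPM in Co-L 1 to 3 and at 0.186, 0.115 and 0.158 CPM in Co-H 1 to 3. In T it stood at 4.07, 4.74 and 6.45 CPM in T-L 1 to 3 and at 9.26, 10.9 and 7.12 CPM in T-H 1 to 3. It rose from 0.465 ± 0.511 CPM in Co to 7.09 ± 2.61 CPM in T (SD, n = 6 each). The edgeR log2 change was 4.29 with an SE of 0.36 and an adjusted p of 1.5e-06. For both genes every T library was above every Co library, and in Co the H values rest on few counts, 22 and 6 over 3 libraries.

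The members with the greatest fall in T were Co-up genes. ENSBTAG00000009017 stood at 95.2, 104 and 75.4 CPM in Co-L 1 to 3 and at 144, 163 and 165 CPM in Co-H 1 to 3. In T it had 1 or 2 counts in each T-L library and 0 in each T-H library. It was a gene of the Co tissue whose opposite direction in T rests on 5 counts in all. Its mean was 124 ± 37.9 CPM in Co and 0.0560 ± 0.0626 CPM in T (SD, n = 6 each), a ratio of 2222 with 95% Poisson limits of 889 and 6391 from the T counts (edgeR adjusted p = 4.8e-10). No ratio is given for H against L in T. The next was ENSBTAG00000019291, whose libraries are given above. It fell from 26.5 ± 14.9 CPM in Co to 0.927 ± 0.565 CPM in T (SD, n = 6 each). The edgeR log2 change was −4.91 with an SE of 0.31 and an adjusted p of 1.5e-07.

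**Figure D5:**
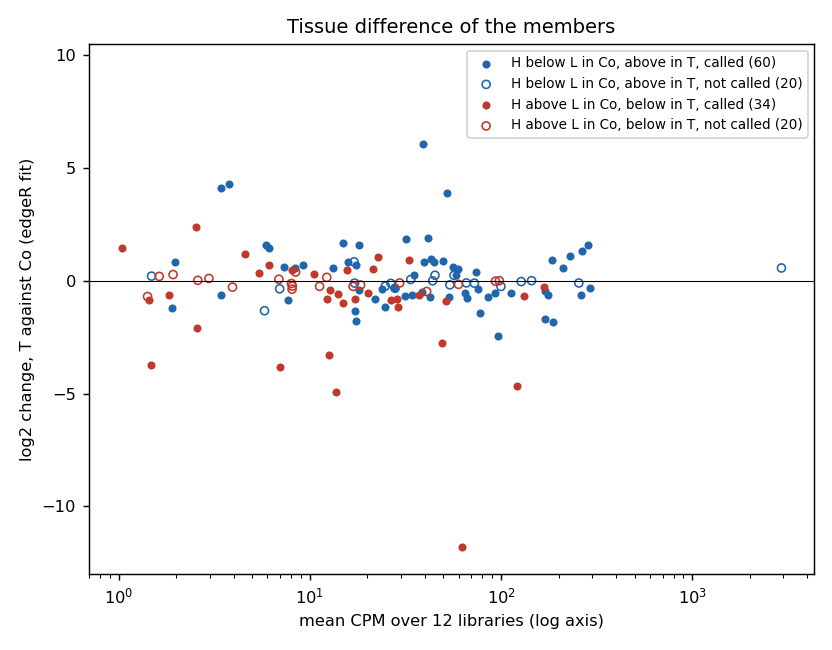
Log2 change of T against Co from the edgeR fit (vertical) against the mean CPM over the 12 libraries (horizontal, logarithmic) for the 54 Co-up genes (red) and the 80 Co-down genes (blue), filled where the adjusted p was under 0.05 (34 and 60) and open otherwise. The 2 greatest rises are Co-down and the 2 greatest falls are Co-up, and most members lie within a few log2 units of 0.

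In many members the tissue with the higher level depended on the fertility group. The order of the group means of Co and T switched between low and high fertility in 53 members (39.6%), against 19.2% of the 14029 identifiers. Opposite fertility differences favour such a switch by construction, so the share is a description. It was 27 of the 54 Co-up genes, where T was higher in low fertility and Co in high fertility, and 26 of the 80 Co-down genes, where the reverse held. Of the 53 members 39 were not called between the tissues. ENSBTAG00000007450 was among them, with group means of 17.6 ± 9.34 CPM in Co-L and 8.45 ± 2.23 in T-L, and of 5.39 ± 0.481 in Co-H and 36.6 ± 34.7 in T-H (SD, n = 3 each).

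The spread within groups was smaller in the members than in genes at large, which a rule of no overlap favours. The median SD of log2(CPM + 0.5) within groups was 0.19 in the members and 0.27 over the 14029 identifiers. By group, the median over the members was 0.19 in Co-L, 0.20 in Co-H, 0.12 in T-L and 0.12 in T-H, against 0.26, 0.24, 0.19 and 0.19 over the identifiers.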

How the data were processed

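The authors deposited raw read counts per cattle gene identifier, 1 file for each of 12 libraries. Bowtie 0.12.2 is named for all libraries and the cattle build bosTau8 for 7, per the submitters' processing notes. The counting tool, annotation release, strand setting and filters are unknown here (not given in the sources used), so reads shared by near-identical or overlapping genes, and genes that differ between sheep and cattle, could be miscounted. A blank line was skipped in 1 file. The header of the T-H 3 file runs into its first gene, whose count was kept. Groups were taken from the titles.

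The rule for members used TMM-scaled CPM of identifiers with a summed count of 120 or more. Tests used R 4.3.3 with edgeR 4.0.16: filterByExpr with a minimum count of 10 (14839 genes, all 134 members included), TMM, 1 mean per group over all 12 libraries, quasi-likelihood tests, and Benjamini-Hochberg adjustment over all genes. The fit was tested on simulated data with known changes. Positions, spread and correlations used log2(CPM + 0.5). A library's value has the precision of its counts, given as 95% exact Poisson intervals for counting error. Each library counted as 1 replicate. Replicate pairs differed beyond sampling noise (chi-square per degree of freedom 18.0 to 135), which does not show that they come from separate animals.

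Alternatives were RLE, upper quartile and library total scaling, DESeq2 1.42.0, limma-voom (limma 3.58.1) with quality weights, other count filters, other mean minimums, a replicate block, and leaving out each library. Leaving out Co-H 1, Co-L 3 and T-H 1 together was chosen after the data were seen. The members, lists and tests were chosen with earlier results of these data known. Without gene names, the planned gene lists and markers were not used. The first 2 identifiers of each class, ordered by the smaller of the absolute fertility differences, were named, and for the tissue comparison the 2 greatest called changes each way.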

Additional observations from a re-analysis of the deposited data

Results flagged for a closer look

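For each of the 4 leading members every high-fertility library moved one way in Co and the other way in T. This is how they were chosen, so the difference was not tested. The log2 difference between H and L in T minus that in Co was −3.15 for ENSBTAG00000011275 and −2.69 for ENSBTAG00000019291. It was 12.3 for ENSBTAG00000039504 and 3.81 for ENSBTAG00000007450. The value of ENSBTAG00000039504 rests on Co-L 3, T-H 1 and T-H 2, as its libraries show. Single libraries far from their group were not looked for by a test, since each group has 3.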

How the results depend on the processing

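The numbers called between the tissues held, while their split into higher and lower moved. Over 20 alternatives, 88 (without Co-L 2) to 101 (limma-voom) of the 134 members differed between T and Co, against 94, and 9080 (without T-L 2) to 10398 (limma-voom) of all genes, against 9553. With upper quartile factors 46 members were higher and 46 lower in T, against 42 and 52. Of all genes 5286 were then higher and 4317 lower, against 4700 and 4853. These factors raised the median log2 difference of T minus Co over all 14029 identifiers by 0.09. Scaling to the library total, not among the 20, raised it by 0.40. The 4 genes named for tissue kept their direction and an adjusted p under 0.05 in all 80 combinations of gene and alternative. They were picked as the greatest called changes, and all but ENSBTAG00000012482 met the mean of 1 CPM through 1 tissue. Their persistence is therefore a description and no support. With the replicate block 90 members and 9341 genes were called. Whether the numbers pair the samples cannot be settled with 3 libraries in a group. Of 18 same-numbered pairs 3 had a correlation of deviations over 0.1, and 7 correlated best with their own number. The pairs of Co-L with T-L all correlated best with their own number (r of 0.09, 0.09 and 0.16). The pairs of Co-H with T-H did not (r of 0.001, −0.09 and −0.06). Over the same 20 alternatives the median H minus L log2 difference ran from 0.61 to 0.84 in Co and −0.35 to −0.27 in T for the Co-up genes, and from −0.53 to −0.35 and 0.24 to 0.31 for the Co-down genes. These values chose the members, so their range says nothing of stability.

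The counts over all genes between fertility groups did not hold. Co-H against Co-L, at 709, gave 2271 genes in DESeq2, 4543 in limma-voom, 3 without a count filter, 0 with the replicate block, 0 to 3110 with single libraries left out and 2891 without Co-H 1, Co-L 3 and T-H 1. Leaving out Co-H 1 gave the 3110 and leaving out Co-L 1 gave 1131. Leaving out Co-L 2 gave 7, T-L 1 gave 2, Co-L 3 gave 1, and each of the other 7 libraries gave 0. T-H against T-L, at 0, gave 27 in DESeq2 and 3 in limma-voom. The difference between the tissues, at 0, gave 135 in DESeq2, 1675 in limma-voom, 0 to 1237 with single libraries left out (1237 without Co-H 1 and 0 without each of the others) and 1029 without those 3 libraries. The causes were not tested.

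The number of members depended on scaling and on each library. With the library total alone there were 127 Co-up and 14 Co-down genes. With single libraries left out the numbers ran from 66 to 172 and from 80 to 215, since fewer libraries have to be separated. Of the members, 48 to 53 Co-up and 61 to 80 Co-down genes then still met the rule. Without Co-H 1, Co-L 3 and T-H 1 the numbers were 299 and 360, with 50 and 70 of the members among them. A member stays separated when libraries are left out, unless the new scaling or the cut-offs on level drop it. The numbers of members kept therefore say nothing of stability. Depth limits the members with low counts most, as 16 had under 10 counts in a library.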
